A study of Mus musculus with 4 samples.

Results

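The platelet-derived growth factor (PDGF) genes of the mouse were followed here across the cells of the E14.5 ventricle, in hearts with 1 or both copies of Ets1 floxed for deletion in endothelium. They are the 4 ligand genes Pdgfa, Pdgfb, Pdgfc and Pdgfd and the 2 receptor genes Pdgfra and Pdgfrb. The 6 genes were chosen by symbol from the 32285 genes of the deposited count matrices, and all 6 were found in all 4 libraries. The samples were 4 single-cell RNA libraries, each made from the pooled ventricles of 3 embryos on a C57BL/6 background, of both sexes and without sex genotyping. The 2 control libraries came from Tie2Cre;Ets1 fl/+ embryos, which carry Cre and 1 floxed Ets1 allele, and the 2 Ets1 eKO libraries from Tie2Cre;Ets1 fl/fl embryos. Both groups therefore carried Tie2Cre, no embryo received a treatment, and a wild-type heart without Cre was not among these samples. The Tie2 promoter drives Cre in endothelial and endocardial cells, in the cushion mesenchyme that descends from endocardium, and in blood cells, so the deletion is not limited to the coronary vessels. The question put to these genes was how the level of the ligands in endothelium, and of the receptors in mesenchymal, pericyte and epicardial cells, stood in eKO against control.

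PDGFs are secreted dimers that bind 2 receptor tyrosine kinases. PDGF-A and PDGF-C act mainly through PDGFRα, PDGF-D mainly through PDGFRβ, and PDGF-B binds both. PDGF-B from the endothelium of growing vessels recruits PDGFRβ-bearing pericytes and smooth muscle cells, while both receptors act in the epicardium-derived cells that become cardiac fibroblasts and vessel-supporting cells. PDGF-C and PDGF-D are secreted in a latent form and must be cleaved by proteases before they can bind.

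The libraries held 12641 and 7949 barcodes in control replicates 1 and 2 and 10010 and 14951 in eKO replicates 1 and 2, with a median of 8630, 8369, 8222 and 5632 unique molecular identifiers (UMIs) per barcode, so eKO replicate 2 was the shallowest. After filters on cells and removal of doublets 38003 cells remained, and between 0.239% and 0.440% of the barcodes of the smaller library were shared by any pair of libraries, none with the same UMI total. Cells were placed in 10 classes by scores over marker lists that contain no PDGF gene, and each class is called by its markers with the ending "-like". A class cut from a score is a range of cells and not a type. Of the 7267 mesenchymal cells, 1739 lay within 0.1 of either cut that parts fibroblast-like or cushion mesenchymal-like cells from the intermediate cells between them. Within 0.1 of the valve cut lay 336 of the 7285 endothelial cells, and 116 lay as near the coronary cut. The intermediate mesenchymal cells (6.60% of all), the unresolved endothelial cells (3.23%) and the cells of no class (5.93%) enter no level of a class below, but those with the needed lists are part of the bins along marker scores. Most markers of the classes were highest in their own class. Among the exceptions were the fibroblast markers Lum (359 UMIs per 1000000 UMIs of the class, or CPM, against 452 in cushion mesenchymal-like cells), Gsn (79.8 against 141 in valve endocardial-like cells), Dcn and Ogn (both highest in epicardial-like cells, as were the mesenchymal Col1a1 and Col1a2), the cushion marker Hapln1 (323 against 700 in valve endocardial-like cells) and the smooth muscle marker Mylk (28 against 198 in epicardial-like cells). The pericyte marker Vtn was near 0 in pericyte-like cells, at 0.909 CPM, and the smooth muscle-like class held 12 and 11 cells in the eKO libraries against 78 and 219 in the controls, too few to be tested. Epicardial-like cells also had a high median score over the mesenchymal list, 1.91 against 2.31 in fibroblast-like cells, and its part in their PDGF levels was not tested. Tnnt2, a sarcomere gene, stood at 8297 CPM in cardiomyocyte-like cells and between 90.1 (coronary endothelial-like) and 414 (epicardial-like) in the other 9 classes, which gives the scale of RNA found outside its own class.

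Levels are given in CPM, the UMIs of the gene per 1000000 UMIs of the class in 1 library, in the order control replicate 1, control replicate 2, eKO replicate 1, eKO replicate 2. The counts come from 3′ ends and are not scaled by transcript length, so a level is compared between classes and groups and never between genes. Because the UMIs of a class were summed, fewer cells with RNA of a gene and less RNA per cell cannot be told apart. Fold changes are from edgeR's quasi-likelihood test on these sums, scaled by TMM within the class, and can therefore differ slightly from the ratio of the levels. Each adjusted p is a Benjamini-Hochberg value over all genes tested in that class, with a threshold of 0.05. With 2 pools per group, p-values measure only the spread between these pools. A main estimate of a PDGF gene that misses the threshold is therefore given with its 95% interval. This interval shows the sizes of change that these pools leave possible.

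Ets1, the gene targeted by the cross, was lower in the eKO libraries in the endothelial classes. In coronary endothelial-like cells it stood at 373, 342, 186 and 128 CPM, in mural endocardial-like cells at 274, 253, 120 and 93.7, and in valve endocardial-like cells at 272, 263, 118 and 111. The groups did not overlap in any of these 3 classes, and Ets1 fell by 1.11 (SE 0.18, adjusted p = 0.0113), 1.25 (SE 0.14, adjusted p = 0.000716) and 1.18 (SE 0.18, adjusted p = 0.00191) on the log2 scale (edgeR). It also fell in cushion mesenchymal-like cells, from 85.3 and 80.4 to 45.2 and 39.5 CPM (log2 fold change −0.90, SE 0.16, edgeR adjusted p = 0.0441), where DESeq2 gave an adjusted p of 0.0839. Fibroblast-like cells had 108, 91.9, 66 and 69.2 CPM and pericyte-like cells 187, 152, 128 and 128, differences that did not pass the test (edgeR adjusted p = 0.412 and 0.801). In immune-like cells, another class in which Tie2Cre can act, Ets1 stood at 15.5, 13.1, 14.9 and 13.4 CPM with overlap (log2 fold change −0.0078, 95% interval −0.90 to 0.89). In cardiomyocyte-like cells it was higher in both eKO libraries at a low level, 6.28, 6.24, 9.04 and 8.89 CPM (log2 fold change 0.63, SE 0.12, unadjusted p = 0.00111, edgeR adjusted p = 0.405), and that difference passed without eKO replicate 1 (edgeR adjusted p = 0.00705) or without eKO replicate 2 (edgeR adjusted p = 0.0311). Where the floxed exons lie relative to the counted 3′ ends is not given in the sources used here, so the remaining Ets1 counts do not measure the share of undeleted cells.

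Across the 9 classes with enough UMIs for a test there were 54 pairs of a PDGF gene and a class, of which 40 passed the filter on low counts. None of the 40 passed the threshold of edgeR, 5 had an unadjusted p under 0.05, and the smallest adjusted p was 0.113. DESeq2 also called none, with 3 at an unadjusted p under 0.05. Before adjustment edgeR put 1517 of 11378 genes under 0.05 in coronary endothelial-like, 2634 of 12866 in mural endocardial-like and 920 of 9149 in valve endocardial-like cells. It put 1228 of 11566 there in cushion mesenchymal-like, 526 of 8131 in pericyte-like and 652 of 9857 in epicardial-like cells. In cardiomyocyte-like cells these were 1955 of 16001 and in immune-like cells 459 of 8788. The 5 of 40 PDGF pairs lie within the span of these classes. Read against all genes, edgeR called 1.01% of the genes tested in coronary endothelial-like, 3.40% in mural endocardial-like, 0.547% in valve endocardial-like, 0.415% in cushion mesenchymal-like, 0.0123% in pericyte-like, 0.0609% in epicardial-like, 0.00625% in cardiomyocyte-like and 0.0341% in immune-like cells. In fibroblast-like cells it called 0% of 12725 genes, where DESeq2 called 11 and 1134 genes were under 0.05 by edgeR before adjustment. Leaving out 1 library moved the number of genes called by edgeR from 115 to between 159 and 885 in coronary endothelial-like, from 438 to between 426 and 1788 in mural endocardial-like, from 0 to between 30 and 121 in fibroblast-like and from 1 to between 8 and 2355 in cardiomyocyte-like cells. It also moved from 50 to between 64 and 204 in valve endocardial-like, from 48 to between 103 and 315 in cushion mesenchymal-like, from 1 to between 9 and 81 in pericyte-like, from 6 to between 21 and 78 in epicardial-like and from 3 to between 37 and 53 in immune-like cells, so these shares are a loose background. The highest counts came without eKO replicate 1 in coronary, mural, cushion and cardiomyocyte-like cells, without eKO replicate 2 in valve endocardial-like cells, without control replicate 1 in fibroblast-like, pericyte-like and immune-like cells, and equally without eKO replicate 1 or control replicate 1 in epicardial-like cells. Other settings gave lower counts in the coronary, mural and valve endocardial-like classes. These were 7, 202 and 4 genes with cells thinned to 2000 UMIs, and 75, 353 and 15 with DESeq2. What follows is therefore mainly an account of where the 6 genes were read, with the size and interval of each difference between the groups.

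**Figure D1:**
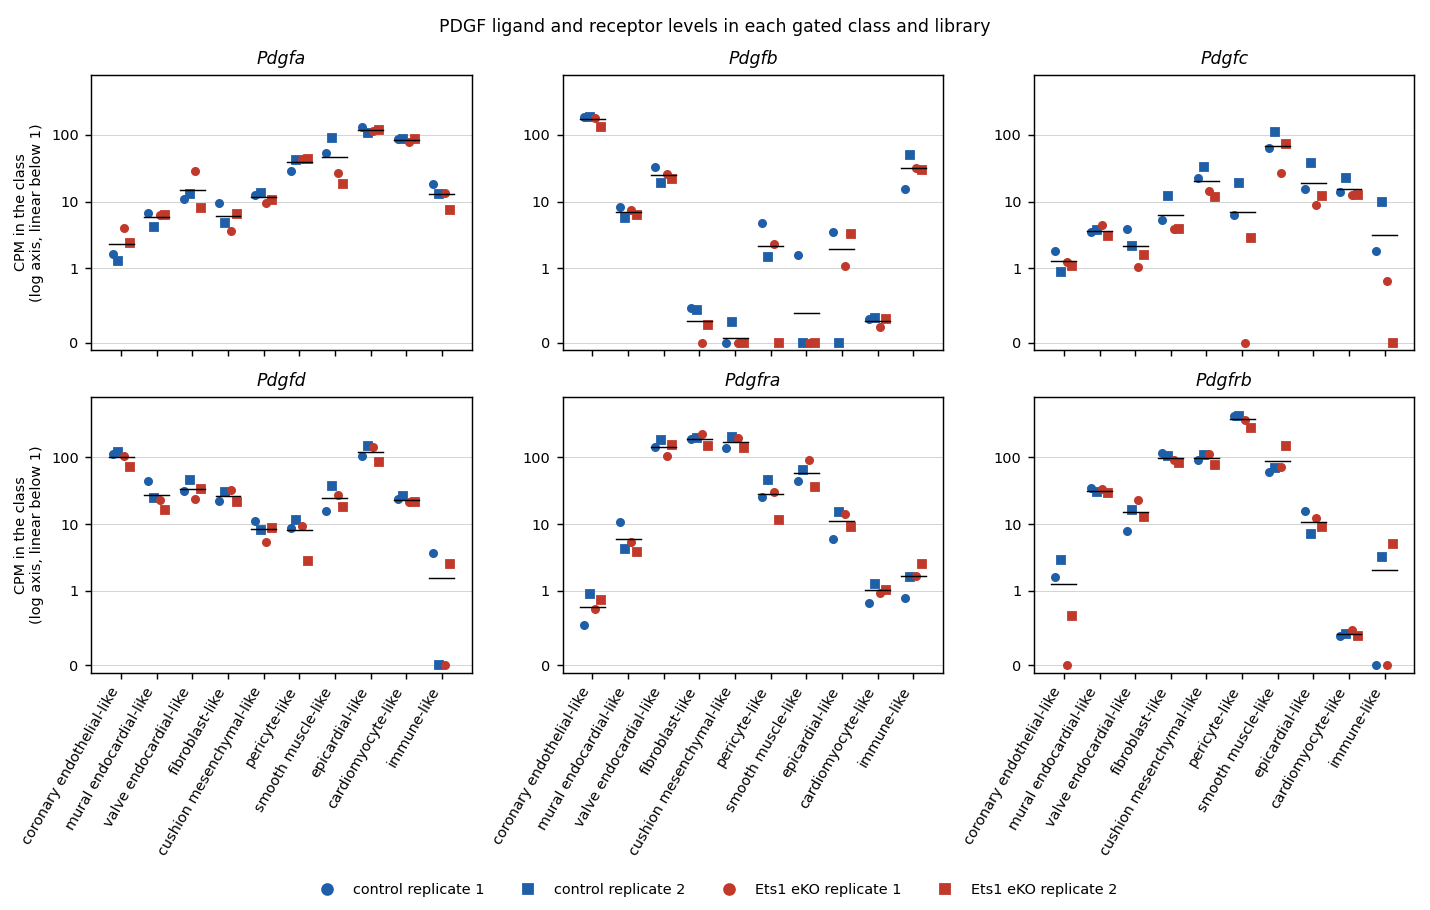
Level of each PDGF gene (vertical axis, CPM on a log axis that is linear below 1) in the 10 marker-gated classes, with 1 point per library, control in blue and Ets1 eKO in red, and the mean of the 4 libraries as a black line. Pdgfb peaked in coronary endothelial-like cells and Pdgfrb in pericyte-like cells, Pdgfa in epicardial-like and cardiomyocyte-like cells, and Pdgfra in fibroblast-like, cushion mesenchymal-like and valve endocardial-like cells.

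In the plot of levels by class the leading class of the ligands and of the receptors differed, while several classes had RNA of both. Smooth muscle-like cells had Pdgfa (mean 47 CPM) and Pdgfc (68.2) with Pdgfra (58.9) and Pdgfrb (86.9), and valve endocardial-like cells had Pdgfb (25.1) and Pdgfd (33.8) with Pdgfra (145). Coronary endothelial-like cells had Pdgfb and Pdgfd but hardly any receptor RNA (means of 0.782 CPM for Pdgfra and 1.29 for Pdgfrb). Fibroblast-like cells had both receptors with Pdgfd (26.4 CPM), pericyte-like cells had Pdgfrb with Pdgfa (39.5 CPM), and epicardial-like cells had Pdgfa and Pdgfd with low levels of both receptors. Cardiomyocyte-like cells had Pdgfa, with 1.03 CPM of Pdgfra and 0.419 of Pdgfrb.

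Pdgfb, the ligand that endothelium presents to pericytes, lies on chr15:79995874-80014977 on the minus strand (GRCm38, GENCODE vM21). Coronary endothelial-like cells had 183, 186, 181 and 132 CPM and held 79.0% of all Pdgfb UMIs. Both eKO libraries lay below both controls, eKO replicate 1 by a small margin and eKO replicate 2 well apart. Of the genes with at least 10 CPM in this class, 33.2% were lower in both eKO libraries, so such an order is common there. The log2 fold change was −0.15 (SE 0.16, 95% interval −0.51 to 0.20, edgeR adjusted p = 0.714), an interval that leaves room for a fall to 0.702 of the control level or a rise to 1.15 times it. The direction rested on the shallow eKO replicate 2, since the estimate was −0.38 without eKO replicate 1 and 0.05 without eKO replicate 2.

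The arterial part of the coronary class, 230 cells with a high score over arterial genes such as Gja5 and Gja4, had 237, 214, 233 and 153 CPM of Pdgfb, and the other coronary cells 172, 180, 173 and 129. In each library the arterial cells were the higher of the pair. Along bins of the arterial score the mean level over the libraries was 149, 181, 178, 193 and 233 CPM from the lowest bin to the highest. The groups overlapped in arterial cells, with a log2 fold change of −0.13 (95% interval −0.60 to 0.34, edgeR adjusted p = 0.864, where 0.219% of the genes tested in these cells were called).

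Other cells had far less Pdgfb. Immune-like cells came second with 15.5, 50.7, 32.3 and 29.3 CPM, and valve endocardial-like cells, the lining of the forming valves, had 33.4, 18.7, 26.3 and 22.1. These classes overlapped each other, and both lay above mural endocardial-like cells, the lining of the ventricular wall, with 8.36, 5.60, 7.53 and 6.38. Within the immune-like class Pdgfb was higher in the 665 cells with a UMI of the macrophage genes C1qa or C1qb (36.8 ± 14.2 CPM, SD, n = 4 libraries) than in the other 151 (6.17 ± 7.26). The latter had 3.47, 16.7, 0 and 4.53 CPM from 42, 11, 35 and 63 cells, too few to fix a level near the floor. The groups overlapped in all 3 of these classes, and the log2 fold changes were 0.07 (95% interval −0.76 to 0.90) in immune-like, −0.06 (−0.82 to 0.69) in valve endocardial-like and 0.03 (−0.56 to 0.62) in mural endocardial-like cells. The difference between the coronary and the mural fold change was −0.21 (SE 0.22, 95% interval −0.66 to 0.25, edgeR adjusted p = 0.794 for the class by condition term, where 1.84% of genes were called).

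Counted by cell, after thinning to 2000 UMIs, 25.4%, 32.0%, 27.4% and 22.4% of coronary endothelial-like cells had a UMI of Pdgfb. Cells with fewer than 2000 UMIs were left out, here and wherever cells were thinned to that depth. These were 1530, 738, 1356 and 1608 cells over all classes. The exact 95% binomial intervals of the libraries, which cover counting error only, ran from 21.2% to 30.0%, 25.8% to 38.6%, 22.5% to 32.6% and 19.0% to 26.1%. The eKO mean was 3.77 percentage points lower, within the spread of the libraries (two-sided exact permutation test, p = 0.667, where 0.33 is the smallest p that 2 against 2 libraries allow). Cardiomyocyte-like cells, which should lack the gene, had a mean of 0.0387%. Without thinning the shares were 76.4%, 77.7%, 71.5% and 50.9%, at class medians of 11310, 11211, 9660 and 5946 UMIs per cell. The part of depth in this difference was not tested.

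Pdgfd, the ligand of PDGFRβ that needs a protease, lies on chr9:6168584-6378850 on the plus strand (GRCm38, GENCODE vM21), and it had the smallest adjusted p of the family. Its promoter, with that of Pdgfc, is shown because these genes had the smallest unadjusted p-values of the family, and that of Pdgfra because it marks the receiving mesenchyme. ETS1 belongs to the ETS family of transcription factors, which bind DNA with a GGAA core. The windows are the 250 bases before the RefSeq start on the strand of the gene (GRCm38.p6), 5′ to 3′, with the core GGAA and its reverse TTCC in capitals, at chr9:6168236-6168485 for Pdgfd, chr3:81036166-81036415 for Pdgfc and chr5:75152001-75152250 for Pdgfra.

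Pdgfd: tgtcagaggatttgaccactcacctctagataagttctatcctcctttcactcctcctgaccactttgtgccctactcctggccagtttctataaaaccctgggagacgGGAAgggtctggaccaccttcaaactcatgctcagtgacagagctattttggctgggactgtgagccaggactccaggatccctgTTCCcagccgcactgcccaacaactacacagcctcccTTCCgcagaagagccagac
Pdgfc: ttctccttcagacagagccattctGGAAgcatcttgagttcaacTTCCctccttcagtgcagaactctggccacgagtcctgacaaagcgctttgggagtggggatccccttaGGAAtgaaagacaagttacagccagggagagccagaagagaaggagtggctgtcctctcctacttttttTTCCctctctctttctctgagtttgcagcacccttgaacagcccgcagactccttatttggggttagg
Pdgfra: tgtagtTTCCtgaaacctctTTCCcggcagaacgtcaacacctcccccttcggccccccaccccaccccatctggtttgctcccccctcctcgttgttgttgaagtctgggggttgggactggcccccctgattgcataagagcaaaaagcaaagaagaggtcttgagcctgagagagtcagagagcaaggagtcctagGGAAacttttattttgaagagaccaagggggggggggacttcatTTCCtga

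The core was found 3 times before Pdgfd, 4 times before Pdgfc and 4 times before Pdgfra, on either strand. This is close to the usual count, as 93.4% of 32851 RefSeq promoter windows of the same length hold the core and the median is 3 matches. The longer CAGGAA, which contains the core, was found 2 times before Pdgfra and not before the other 2 genes, and 25.7% of windows hold it. CCGGAAGT (2.88% of windows) and CAGGAAGT (2.69%) were in none of the 3 windows. A match is a run of letters and not a site shown to be bound, and no entry for Pdgfb was matched.

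Epicardial-like cells, the outer layer of the heart, had 105, 147, 143 and 84.4 CPM of Pdgfd and coronary endothelial-like cells 112, 120, 105 and 72.4. The ranges of these leading classes overlapped, and all libraries of both lay above those of every other class. Valve endocardial-like, mural endocardial-like, fibroblast-like, smooth muscle-like and cardiomyocyte-like cells followed with means from 23.2 to 33.8 CPM and overlapping neighbours, and immune-like cells were lowest with 1.54. Because cardiomyocyte-like cells are so many, 49.0% of all Pdgfd UMIs came from them and 19.1% from coronary endothelial-like cells.

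In mural endocardial-like cells Pdgfd stood at 44.0, 24.7, 23.0 and 16.5 CPM. Both eKO libraries lay below both controls, as did 35.4% of genes of at least 10 CPM in this class, and control replicate 1 stood apart above the other 3 libraries. The log2 fold change was −0.76 (SE 0.25, 95% interval −1.30 to −0.22, unadjusted p = 0.00974, edgeR adjusted p = 0.113). It was −0.30 without control replicate 1, −0.55 without eKO replicate 2, −1.0 without eKO replicate 1 (edgeR adjusted p = 0.00359) and −1.07 without control replicate 2 (edgeR adjusted p = 0.000180). The size of the mural difference, and the side of the threshold on which it falls, thus depended on single libraries, and with all 4 libraries it passed when the filter on low counts was dropped (−0.75, edgeR adjusted p = 0.00232). How many of all mural genes were called without that filter is not given here, so this pass has no background beside it.

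In coronary endothelial-like cells the eKO libraries were also both below the controls, as for 33.2% of genes of at least 10 CPM there, and the log2 fold change of Pdgfd was −0.31 (SE 0.17, 95% interval −0.68 to 0.07, edgeR adjusted p = 0.467). Without eKO replicate 1 it was −0.58 (edgeR adjusted p = 0.0173) and without eKO replicate 2 −0.07. The arterial cells within the class had 161, 164, 80.9 and 115 CPM, with no overlap between the groups (28.6% of genes were lower in both eKO libraries there) and a log2 fold change of −0.62 (SE 0.22, 95% interval −1.09 to −0.15, edgeR adjusted p = 0.284), and the other coronary cells 102, 110, 109 and 65.9, with overlap. Along the arterial score Pdgfd had means of 90.9, 93.5, 123, 108 and 154 CPM from the lowest bin to the highest. The difference between the mural and the coronary fold change was −0.44 (95% interval −0.84 to −0.04, unadjusted p = 0.0315, edgeR adjusted p = 0.342), a contrast chosen after the values were seen, and it was 0.08 without control replicate 1 and −0.80 without control replicate 2, where it passed (edgeR adjusted p = 0.000295).

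Outside these classes every interval of Pdgfd included 0. Valve endocardial-like cells had 31.4, 46.2, 24.2 and 33.2 CPM (log2 fold change −0.42, 95% interval −1.09 to 0.25) and fibroblast-like cells 21.9, 30.2, 32.0 and 21.5 (0.17, −0.32 to 0.66), both with overlapping groups. Cardiomyocyte-like cells had 23.6, 26.3, 21.8 and 21.1 CPM, lower in both eKO libraries as were 41.8% of genes there, with a log2 fold change of −0.10 (95% interval −0.35 to 0.15). In epicardial-like cells the groups overlapped and the log2 fold change was −0.04 (95% interval −0.50 to 0.41). With cells thinned to 2000 UMIs, 18.0%, 19.2%, 17.6% and 12.0% of coronary endothelial-like cells had a UMI of Pdgfd, against a mean of 0.355% of immune-like cells. Without thinning the coronary shares were 54.3%, 54.1%, 50.9% and 30.1% and the immune-like mean 0.512%, at a median of 3446 to 6664 UMIs per immune-like cell.

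Pdgfa, a ligand of PDGFRα, lies on chr5:138976014-138997370 on the minus strand (GRCm38, GENCODE vM21), and it was read mainly in muscle and epicardium. Epicardial-like cells had 132, 107, 115 and 120 CPM and cardiomyocyte-like cells 86.6, 86.9, 77.2 and 87.7, with no overlap between the classes. Cardiomyocyte-like cells held 90.1% of all Pdgfa UMIs, in compact cells (80.7 ± 5.62 CPM, SD, n = 4 libraries) as in trabecular cells (88.8 ± 2.55). Smooth muscle-like cells (mean 47.0) overlapped both cardiomyocyte-like and pericyte-like cells (39.5), and coronary endothelial-like cells were lowest with 1.64, 1.27, 4.01 and 2.41.

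The groups overlapped for Pdgfa in both leading classes. The log2 fold change was 0.05 in epicardial-like cells (95% interval −0.33 to 0.42) and 0.05 in cardiomyocyte-like cells (−0.24 to 0.33), where total count scaling in place of TMM turned it to −0.03 and −0.07. As folds, the intervals ran from 0.794 to 1.34 times the control level in epicardial-like and from 0.849 to 1.26 times in cardiomyocyte-like cells. Pericyte-like cells had 29.2, 42.4, 43.5 and 42.7 CPM, barely higher in both eKO libraries, as 12.3% of genes were (0.42, −0.22 to 1.05), and valve endocardial-like cells 10.8, 13.2, 28.4 and 7.91 (0.76, −0.25 to 1.77), where eKO replicate 1 alone was high. Cushion mesenchymal-like cells had 12.6, 13.6, 9.54 and 10.7 CPM (−0.31, −0.91 to 0.28), lower in both eKO libraries as were 29.1% of genes, and immune-like cells 18.2, 13.1, 13.2 and 7.52 (−0.60, −1.58 to 0.38).

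In coronary endothelial-like cells Pdgfa was higher in both eKO libraries, as were 14.5% of genes of at least 10 CPM (Pdgfa, with a mean of 2.33, is not among these), with a log2 fold change of 1.15 (SE 0.51, 95% interval 0.05 to 2.25, unadjusted p = 0.0424, edgeR adjusted p = 0.359). All 4 levels there were at or below 4.01 CPM, where the lowest cardiomyocyte-like level was 77.2. The share of this RNA that came from cardiomyocytes as free RNA was not tested. With cells thinned to 2000 UMIs, 15.7%, 16.0%, 14.1% and 15.8% of cardiomyocyte-like and 19.6%, 24%, 20% and 20.8% of epicardial-like cells had a UMI of Pdgfa, and 0.574% of coronary endothelial-like cells (mean). The unthinned means were 51.3%, 49.7% and 2.35%.

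Pdgfc, the other latent ligand and one that acts mainly on PDGFRα, lies on chr3:81036416-81214040 on the plus strand (GRCm38, GENCODE vM21). Smooth muscle-like cells had the highest level, 64.5, 109, 27.0 and 73.0 CPM, from few cells in the eKO libraries. Cushion mesenchymal-like cells (mean 20.4), epicardial-like cells (18.7) and cardiomyocyte-like cells (15.4) came next, and every neighbour in the order overlapped the next. Cardiomyocyte-like cells held 68.7% of all its UMIs and coronary endothelial-like cells, with 1.28 CPM, 0.547%.

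Pdgfc was lower in both eKO libraries than in both controls in the cushion mesenchymal-like, epicardial-like, fibroblast-like and cardiomyocyte-like classes. Cushion mesenchymal-like cells had 22.5, 33.0, 14.5 and 11.7 CPM, with a log2 fold change of −1.02 (SE 0.26, 95% interval −1.59 to −0.45, unadjusted p = 0.00232, edgeR adjusted p = 0.148). Epicardial-like cells had 15.6, 38.2, 8.83 and 12.2, with −1.28 (SE 0.40, 95% interval −2.10 to −0.46, unadjusted p = 0.00382, edgeR adjusted p = 0.436). Control replicate 2 was the highest library in both. The cushion difference passed when the filter on low counts was dropped (−1.04, edgeR adjusted p = 0.00261), where the count of all genes called in that class rose from 48 to 360. Fibroblast-like cells had 5.32, 12.1, 3.94 and 3.86 (−1.01, −1.91 to −0.10, edgeR adjusted p = 0.541) and cardiomyocyte-like cells 14.2, 22.5, 12.4 and 12.4 (−0.43, −0.88 to 0.02, edgeR adjusted p = 0.408). Of genes with at least 10 CPM, 29.1% were lower in both eKO libraries in cushion mesenchymal-like, 25.9% in epicardial-like, 35% in fibroblast-like and 41.8% in cardiomyocyte-like cells, a group of genes that leaves out Pdgfc in fibroblast-like cells, whose mean was 6.31 CPM.

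Control replicate 2 carried much of this. Without it the log2 fold change of Pdgfc was −0.71 in cushion mesenchymal-like (edgeR adjusted p = 0.640), −0.54 in epicardial-like and −0.09 in cardiomyocyte-like cells. Without control replicate 1 it was −1.24 (edgeR adjusted p = 0.00342) and −1.81 (edgeR adjusted p = 0.00134) in the cushion and epicardial classes, and without eKO replicate 1 −1.21 in the cushion class (edgeR adjusted p = 0.0248). Control replicate 2 was also the library with most smooth muscle-like cells, 3.21% of its cells against 0.757% in control replicate 1, 0.140% in eKO replicate 1 and 0.0893% in eKO replicate 2, the class with most Pdgfc. Whether tissue or RNA of that kind had a part in the Pdgfc values of the other classes was not tested.

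**Figure D2:**
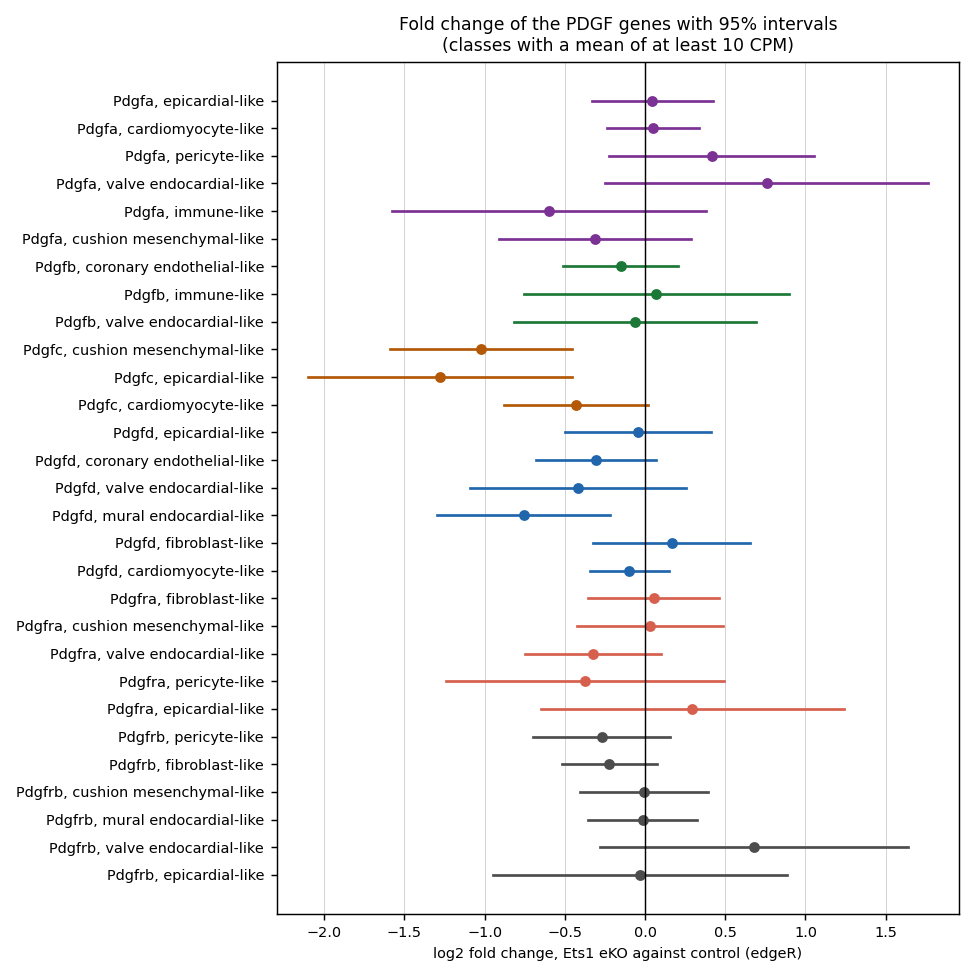
Log2 fold change of each PDGF gene, Ets1 eKO against control (horizontal axis), in the 29 pairs of gene and class with a mean of at least 10 CPM, with dots for the edgeR estimate and lines for its 95% interval. Most intervals cross 0, and those of Pdgfd in mural endocardial-like cells and of Pdgfc in cushion mesenchymal-like and epicardial-like cells lie below it, none of them past the threshold after adjustment over all genes.

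Pdgfra, the receptor that marks fibroblast precursors, lies on chr5:75152292-75198215 on the plus strand (GRCm38, GENCODE vM21). Fibroblast-like cells had 189, 193, 222 and 147 CPM, cushion mesenchymal-like cells 140, 205, 198 and 139, and valve endocardial-like cells 144, 179, 103 and 152. These 3 classes overlapped, stood above the rest, and overlapped between the groups. Smooth muscle-like (mean 58.9), pericyte-like (28.1), epicardial-like (11.1) and mural endocardial-like cells (6.03) followed with overlapping neighbours, all above the near-background levels of immune-like, cardiomyocyte-like and coronary endothelial-like cells.

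The log2 fold change of Pdgfra was 0.05 in fibroblast-like (SE 0.18, 95% interval −0.36 to 0.46, edgeR adjusted p = 0.942), 0.03 in cushion mesenchymal-like (−0.42 to 0.48) and −0.33 in valve endocardial-like cells (−0.75 to 0.10). Total count scaling turned the fibroblast-like and cushion values to −0.05 and −0.04. Pericyte-like cells had 25.3, 45.4, 30.6 and 11.4 CPM (−0.37, −1.24 to 0.49), and epicardial-like cells 6.07, 15.1, 14.4 and 8.93 (0.29, −0.65 to 1.24), each with overlap. The fibroblast-like and epicardial-like fold changes differed by −0.22 (SE 0.39, 95% interval −1.0 to 0.56, edgeR adjusted p = 0.996, where 0.307% of genes were called for the class by condition term), which was 0.34 without control replicate 1 and −0.98 without control replicate 2.

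Within endocardium the level of Pdgfra was higher in valve than in mural cells. Without thinning, 30.6%, 30.5%, 24.6% and 29.7% of valve endocardial-like cells had a UMI of Pdgfra, against 2.99%, 2.26%, 2.38% and 1.22% of mural endocardial-like cells. Most valve endocardial-like cells thus had no UMI of it at this depth. Along bins of the valve marker score (Nfatc1, Prox1, Hey2 and other genes) in all endocardial cells, the mean level of Pdgfra was 3.62, 7.25, 28.8, 78.0, 132 and 134 CPM from the lowest bin to the highest. In the top bin the libraries had 126, 185, 114 and 110 CPM, against 4.48, 3.84, 3.98 and 2.16 in the lowest, so the contrast was present in all 4. Pdgfrb ran the other way over the same bins, with 35.1, 29.5, 24.7, 22.9, 17.6 and 11.5 CPM. Pdgfra was thus highest at the valve end and Pdgfrb at the mural end, as a description with no test, since the bins share libraries and depth.

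With cells thinned to 2000 UMIs, 28.5%, 28.1%, 34.4% and 23.7% of fibroblast-like cells had a UMI of Pdgfra. The groups overlapped, and the eKO mean was 0.758 percentage points higher (two-sided exact permutation test, p = 1). Cardiomyocyte-like cells, which should lack it, had a mean of 0.255%. Unthinned, the fibroblast-like shares were 67.2%, 66.7%, 69.8% and 42.0% and the cardiomyocyte-like mean 1.04%, at class medians of 7662, 7548, 7597 and 4295 UMIs per fibroblast-like cell.

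Pdgfrb, the receptor through which pericytes answer PDGF-B, lies on chr18:61045150-61085061 on the plus strand (GRCm38, GENCODE vM21). Pericyte-like cells led with 422, 416, 368 and 273 CPM, above every library of every other class. Fibroblast-like cells had 114, 104, 92.0 and 83.0, cushion mesenchymal-like cells 92.2, 107, 112 and 77.6, and smooth muscle-like cells 61.4, 68.3, 71.9 and 146. These 3 overlapped, and all lay above mural endocardial-like cells with 34.7, 30.3, 33.2 and 28.9, which in turn lay above valve endocardial-like and epicardial-like cells.

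Both eKO libraries were below both controls for Pdgfrb in pericyte-like and in fibroblast-like cells, as were 26.7% and 35% of genes of at least 10 CPM there. The log2 fold change was −0.27 in pericyte-like (SE 0.20, 95% interval −0.70 to 0.16, edgeR adjusted p = 0.816) and −0.22 in fibroblast-like cells (SE 0.13, −0.52 to 0.07, edgeR adjusted p = 0.631). Leaving out single libraries gave −0.52 to −0.08 in pericyte-like cells, with the value nearest 0 without eKO replicate 2. In cushion mesenchymal-like and mural endocardial-like cells both estimates were −0.01, with intervals from −0.40 to 0.39 and from −0.35 to 0.33. Valve endocardial-like cells had 7.85, 16.5, 23.1 and 12.7 CPM (0.68, −0.28 to 1.64) and epicardial-like cells 15.6, 7.03, 12.1 and 8.93 (−0.03, −0.95 to 0.89), both with overlap. The difference between the fibroblast-like and epicardial-like fold changes was −0.19 (SE 0.40, 95% interval −0.98 to 0.59, edgeR adjusted p = 0.996), and it was −0.82 without control replicate 1, 0.15 without control replicate 2 and 0.0076 without eKO replicate 1.

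With cells thinned to 2000 UMIs, 52.3%, 58.3%, 50.7% and 47.9% of pericyte-like cells had a UMI of Pdgfrb, a difference of −6.03 percentage points without overlap (two-sided exact permutation test, p = 0.33, the smallest possible). It was −14.3 points at 1000 UMIs and −0.383 without thinning. In fibroblast-like cells the shares were 17.5%, 18.6%, 14.7% and 13.9%, a difference of −3.74 points (p = 0.33 by the same exact test), which was −1.71 at 1000 UMIs and −13.7 without thinning. The mean in cardiomyocyte-like cells was 0.083%. Unthinned, 91.2%, 85.5%, 95.9% and 80.0% of pericyte-like cells had a UMI, with overlapping groups, against a mean of 0.430% of cardiomyocyte-like cells.

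The pericyte-like class itself made up 1.11% and 0.910% of the cells in the controls and 0.864% and 0.406% in the eKO libraries, from 114, 62, 74 and 50 cells. The eKO libraries were both lower, by a mean of 0.372 percentage points (two-sided exact permutation test, p = 0.33, the smallest possible), and eKO replicate 2 was both the lowest and the shallowest. With gates set on thinned cells the shares were 0.626%, 0.477%, 0.403% and 0.252%. Fibroblast-like cells made up 7.36%, 8.07%, 7.98% and 7.23% (exact p = 0.667) and epicardial-like cells 1.43%, 1.85%, 2.82% and 2.14%, higher in both eKO libraries (exact p = 0.33). Dissociation sets how many cells of a class are caught, so these are shares of captured cells.

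**Figure D3:**
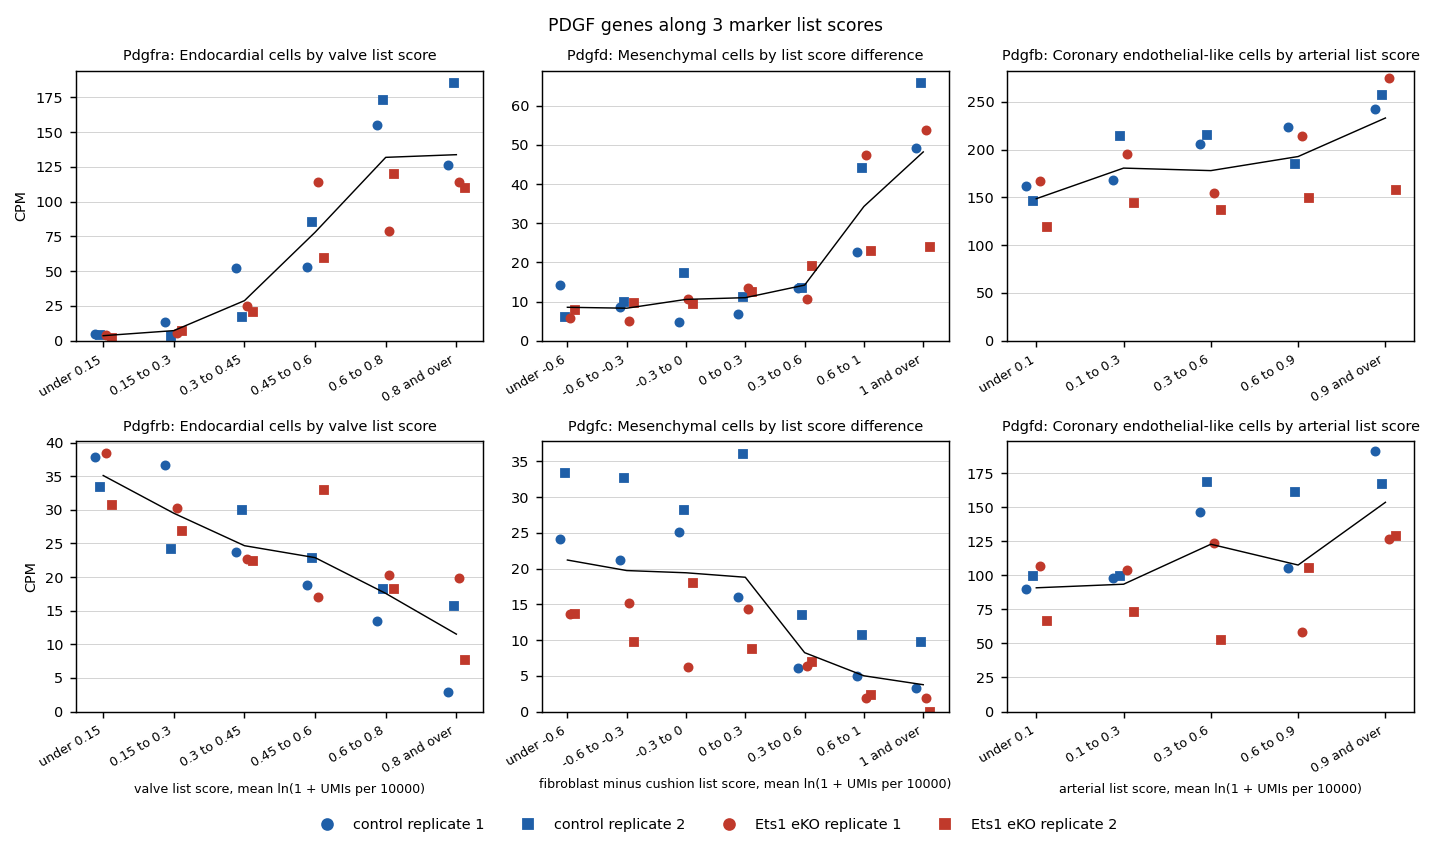
Level of PDGF genes (vertical axis, CPM) in bins of a marker score (horizontal axis), for Pdgfra and Pdgfrb along the valve score of endocardial cells, Pdgfd and Pdgfc along the fibroblast minus cushion score of mesenchymal cells, and Pdgfb and Pdgfd along the arterial score of coronary endothelial-like cells, with points for libraries and a line for their mean. Pdgfra went from 3.62 to 134 along the valve score while Pdgfrb went from 35.1 to 11.5.

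Within mesenchyme Pdgfd and Pdgfc divided along the axis from cushion to fibroblast markers, as the plot of scores shows. Pdgfd had means of 8.54, 8.30, 10.6, 11, 14.2, 34.3 and 48.2 CPM from the cushion end to the fibroblast end. Pdgfc had 21.2, 19.7, 19.4, 18.8, 8.23, 5 and 3.75 over the same bins, the reverse order. Pdgfa had 11.7 CPM at the cushion end and 4.35 at the fibroblast end, and Pdgfb had at most 1.04 in any bin. The receptors changed less along this axis, with Pdgfrb between 72.9 and 122 CPM, lowest at the fibroblast end, and Pdgfra at 163 at the cushion end and 214 at the fibroblast end.

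Receptors and ligands were also counted together in single cells, after thinning to 2000 UMIs. In fibroblast-like cells 115 had a UMI of both Pdgfra and Pdgfrb, where the product of the shares in each library gave 122, and in cushion mesenchymal-like cells 81 had both against 75.1. At this depth the receptors were thus found together about as often as the product of their shares. In coronary endothelial-like cells 77 had both Pdgfb and Pdgfd against 61.8 by the product, and in epicardial-like cells 40 had both Pdgfa and Pdgfd against 31.5. These counts are a description, since cells of 1 library share their source and a class holds ranges of cells.

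Across the 40 points made by 10 classes in 4 libraries, the genes whose log2(CPM + 1) followed each member most closely were taken from 12188 genes. For Pdgfb these were Mfng, Mlkl and Gnai2 (Pearson r 0.944, 0.901 and 0.897), and for Pdgfd Etl4, Thsd7a and Arhgap29 (0.918, 0.904 and 0.880). For Pdgfra they were Gpm6b, Unc5c and Angptl2 (0.937, 0.913 and 0.913), and for Pdgfrb Gpc6, Col6a3 and Cd63 (0.916, 0.915 and 0.911). Pdgfc was followed by Aff2, Foxj3 and Prdm6 (0.862, 0.812 and 0.811) and Pdgfa, with the loosest likeness, by Pde4dip, Hspb2 and Arfgef3 (0.789, 0.779 and 0.764). The points share libraries and reflect mostly the differences between classes.

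The genes around the receptors were examined as 4 lists in the same 9 classes. The 6 coreceptors and extracellular partners (Nrp1, Nrp2, Lrp1, Sparc, Cspg4, Pdgfrl) gave 44 tests, the 7 proteases, among them Plat and Plau, which activate the latent ligands, gave 31, and the 19 effectors next to the receptor, such as Pik3r1, Plcg1 and Grb2, gave 166. None of these passed the threshold of edgeR in either direction. The smallest adjusted p-values in the endothelial classes were for Pcsk5, a furin-like protease, in mural endocardial-like cells (log2 fold change −0.54, edgeR adjusted p = 0.0561), Plau, the urokinase gene, in coronary endothelial-like cells (0.88, edgeR adjusted p = 0.0639), and Nrp2, a coreceptor, in valve endocardial-like cells (−1.57, edgeR adjusted p = 0.0994). The median log2 fold change of the effectors lay between −0.26 and −0.07 in the 9 classes, where the median of all genes lay between 0.00 and 0.02 (between −0.106 and −0.020 under total count scaling). Among genes of at least 10 CPM, both eKO libraries lay below both controls for 33.2% and above them for 14.5% in coronary endothelial-like cells, and for 26.7% and 12.3% in pericyte-like cells, so the medians are a description of the list only.

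The 11 feedback genes of receptor tyrosine kinase signalling (Sprouty, Spred, Dusp, Etv genes and Egr1) gave 83 tests, of which 2 rose and 3 fell, all 5 in endothelial classes, where edgeR called 1.01% (coronary), 3.40% (mural) and 0.547% (valve) of all genes tested. Etv4, an ETS factor induced by such signalling, rose in coronary endothelial-like cells from 16.5 and 15.6 to 39.6 and 34.6 CPM (log2 fold change 1.28, SE 0.18, edgeR adjusted p = 0.00499) and in mural endocardial-like cells from 1.67 and 4.44 to 12.6 and 14.3 (2.25, SE 0.35, edgeR adjusted p = 0.00492). Egr1, an immediate early gene that also responds to cell dissociation, fell in mural endocardial-like cells from 218 and 173 to 117 and 106 (−0.76, SE 0.14, edgeR adjusted p = 0.0143) and in valve endocardial-like cells from 455 and 284 to 169 and 180 (−1.05, SE 0.21, edgeR adjusted p = 0.0155). Dusp6, an ERK phosphatase, fell in valve endocardial-like cells from 54.0 and 48.4 to 17.9 and 12.7 (−1.66, SE 0.33, edgeR adjusted p = 0.0155). The rise of Etv4 in mural cells was 1.62 without control replicate 1 and 3.08 without control replicate 2, from control sums of few UMIs, and passed in both. Without control replicate 1 the falls of Egr1 no longer passed (−0.61, edgeR adjusted p = 0.0976 in mural and −0.66, edgeR adjusted p = 0.398 in valve endocardial-like cells), and in valve endocardial-like cells DESeq2 called neither Egr1 (adjusted p = 0.0811) nor Dusp6 (adjusted p = 0.305), with Dusp6 at −0.65 in Leiden clusters. The Leiden cluster led by valve endocardial-like cells held 1119 cells, of which 34.9% were of that class. Etv4 kept its size in thinned cells (1.32 and 2.28) without passing there (edgeR adjusted p = 0.391 and 0.0839). The list did not move one way, with a median of 0.15 in coronary, −0.07 in mural and −0.50 in valve endocardial-like cells.

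**Figure D4:**
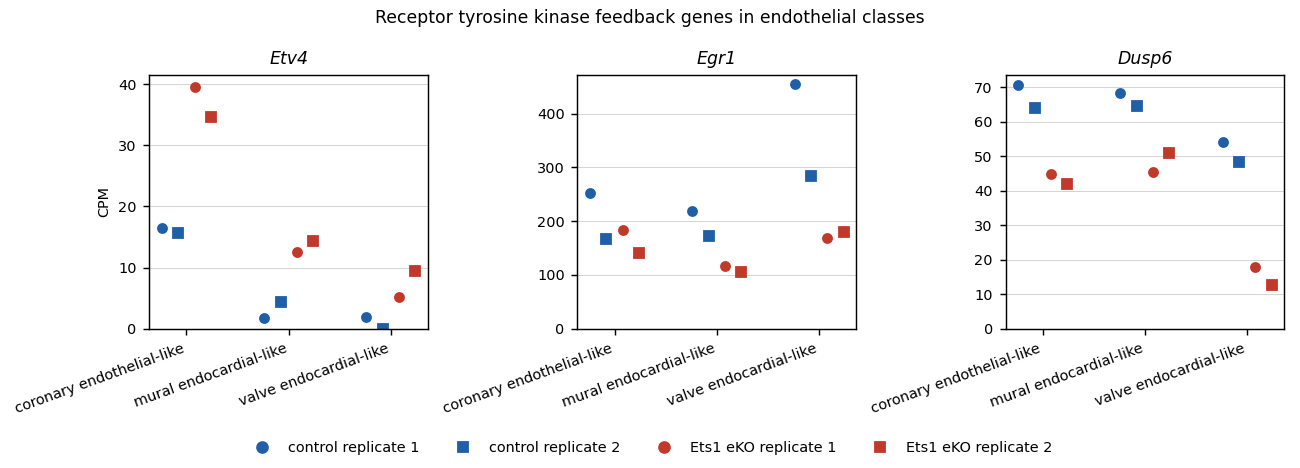
Level of Etv4, Egr1 and Dusp6 (vertical axis, CPM, from 0) in coronary endothelial-like, mural endocardial-like and valve endocardial-like cells, with 1 point per library, control in blue and Ets1 eKO in red. Etv4 was higher in both eKO libraries in the coronary and mural classes, while Dusp6 fell in the valve class and Egr1 in the mural and valve classes.

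The plot of feedback genes by endothelial class shows each library of these 5 pairs. These genes answer to many receptors, FGF and VEGF receptors among them, so their levels are not a reading of PDGF signalling. Of the classes with these calls, valve endocardial-like cells had Pdgfra (mean 145 CPM), mural endocardial-like cells Pdgfrb (31.8 CPM), and coronary endothelial-like cells hardly any RNA of either receptor. In the fibroblast-like, cushion mesenchymal-like, pericyte-like and epicardial-like classes no feedback gene passed the threshold of edgeR, and the smallest adjusted p-values were for Etv4 in fibroblast-like cells (log2 fold change 0.90, edgeR adjusted p = 0.261) and Spred2 in cushion mesenchymal-like cells (−0.50, edgeR adjusted p = 0.258). Differences of these 3 genes of the same sign with an unadjusted p under 0.05, none past the threshold of edgeR, were also found for Dusp6 in coronary endothelial-like (−0.56, edgeR adjusted p = 0.120) and mural endocardial-like cells (−0.40, edgeR adjusted p = 0.132), for Egr1 in cardiomyocyte-like (−0.52, edgeR adjusted p = 0.405) and immune-like cells (−0.46, edgeR adjusted p = 0.931) and for Etv4 in cardiomyocyte-like (0.62, edgeR adjusted p = 0.405) and cushion mesenchymal-like cells (0.51, edgeR adjusted p = 0.362). Other feedback genes had such differences too, given with the edgeR adjusted p second. Etv1 was higher in coronary endothelial-like (0.84, 0.204), mural endocardial-like (0.67, 0.0882), cushion mesenchymal-like (0.48, 0.355) and pericyte-like cells (0.76, 0.689). Etv5 was higher in coronary endothelial-like (0.67, 0.364) and mural endocardial-like cells (0.63, 0.124). Spry4 was higher in mural endocardial-like (0.65, 0.169) and Spred2 lower in pericyte-like cells (−0.60, 0.740).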

How the data were processed

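The deposited files were gene by barcode matrices of whole UMI counts for 4 libraries (Chromium 3′ chemistry), which the authors made with Cell Ranger 7.1.0 on mm10. The submitters' notes also name Seurat 4.3.0. The study's methods name CellBender for removing ambient RNA. Whether the deposited counts precede that step, and whether introns were counted, is not given in the sources used here. Kept were barcodes (11340, 7235, 9243 and 13851) in which 200 to 7000 genes were detected and in which mitochondrial genes took no more than 20% of UMIs, ribosomal genes 35% and hemoglobin genes 2%, and 1029, 419, 683 and 1535 cells most like simulated doublets (k nearest neighbours) were removed. Cells were gated on mean ln(1 + UMIs per 10000) over marker lists with at least 3 markers detected, UMIs were summed per library and class, and classes with under 100000 UMIs in a library were not tested. Tests used edgeR 4.0.16 (R 4.3.3), with no replicate block, and DESeq2 1.42.0 as an alternative; the edgeR step was tested on simulated data first. The rest was done in Python 3.11.15 with scikit-learn 1.9.0.

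Named were all 6 PDGF genes in every class, with fold changes where the mean was at least 10 CPM or a contrast was planned, and for the pairs under 10 CPM with an unadjusted p under 0.05 (Pdgfa in coronary and Pdgfc in fibroblast-like cells, chosen after their values were seen), those members of 4 pathway lists past an adjusted p of 0.05 or else with the smallest p, and the 3 genes most correlated with each member. Feedback genes with an unadjusted p under 0.05 in a class were named as well. Members, lists and gates were chosen with earlier results of these data known. The study tested cells as units, whereas sums per library were tested here. Overlapping genes on the other strand or in introns (such as Gm41361 at Pdgfb and Ddi1 at Pdgfd) had at most 6.02 CPM in any class. Alternatives were another scaling, no filter on low counts, stricter cell filters and gates, Leiden clusters, no doublet removal, thinned cells, replicate blocks and leaving out each library. Libraries came from separate pools of embryos.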

Additional observations from a re-analysis of the deposited data

How the results depend on the processing

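Of the levels, 153 of 162 alternatives moved by less than 1 SD of the 4 libraries. Pairs of gene and class past the threshold numbered 0 as reported and 2 without the filter on low counts, where they were Pdgfd in mural cells (−0.75) and Pdgfc in cushion cells (−1.04). Without that filter the count of all genes called rose from 48 to 360 in cushion, from 0 to 216 in fibroblast and from 3 to 58 in immune cells. The mural count at that setting is not given here. Leaving out 1 library gave 0 to 3 pairs, the lone library then being taken to vary like the other group.

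A replicate block also gave 2 pairs, the same ones, with log2 fold changes of −0.72 (edgeR adjusted p = 0.0375) and −0.99 (edgeR adjusted p = 0.0132), and changed no other call on a PDGF gene. Under that block the count of all genes called rose from 438 to 499 in mural, from 48 to 242 in cushion, from 0 to 123 in fibroblast and from 1 to 69 in cardiomyocyte cells. It fell from 115 to 104 in coronary and from 50 to 37 in valve cells. The replicate numbers do not pair the samples, since deviations of same-numbered libraries correlated at −0.0251 to −0.230 over the classes. With the numbers crossed, a pairing chosen after seeing the data, 2 pairs passed as well (−0.73 and −1.01) and 1 estimate near 0 turned (Pdgfrb in epicardial cells, 0.0083). The count of all genes called then rose from 115 to 715 in coronary, from 438 to 1087 in mural and from 48 to 195 in cushion cells.

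Some estimates that had not passed the test changed sign, the cause of which was not tested. Total count scaling, which put the median of all genes at −0.106 in cardiomyocytes, gave −0.073 for Pdgfa in cardiomyocyte, −0.029 for Pdgfa in epicardial, −0.027 for Pdgfb in mural, −0.037 for Pdgfra in cushion and −0.045 for Pdgfra in fibroblast cells. Thinning gave 0.24 for Pdgfa in cushion, −0.049 for Pdgfa in epicardial and −0.22 for Pdgfb in mural cells. Keeping doublets gave −0.022 for Pdgfb in mural, −0.37 for Pdgfra in epicardial and 0.011 for Pdgfrb in mural cells. Stricter gates gave 0.079 for Pdgfb in valve, 0.16 for Pdgfd in epicardial and 0.052 for Pdgfrb in cushion cells. Stricter cell filters gave 0.016 for Pdgfd in epicardial and 0.018 for Pdgfrb in cushion cells. Leiden clusters gave −0.016 for Pdgfra in cushion, 0.0010 for Pdgfrb in cushion and −0.25 for Pdgfrb in valve cells. Cushion cells made up only 35.2% to 39.2% of the clusters they led, and valve cells 34.9% of theirs. DESeq2 gave −0.033 for Pdgfb in immune and 0.0034 for Pdgfrb in mural cells.

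Leaving out each library in turn moved the log2 fold changes as follows. For Pdgfa the ranges were −0.078 to 0.17 in cardiomyocyte, −0.38 to −0.24 in cushion, −0.10 to 0.22 in epicardial, −1.04 to −0.26 in immune, 0.18 to 0.64 in pericyte, −0.56 to 1.28 in valve cells. For Pdgfb the ranges were −0.47 to 0.15 in arterial coronary, −0.38 to 0.045 in coronary, −0.70 to 1.03 in immune, −0.18 to 0.34 in mural, −0.41 to 0.43 in valve cells. For Pdgfc the ranges were −0.72 to −0.086 in cardiomyocyte, −1.24 to −0.71 in cushion, −1.81 to −0.54 in epicardial cells. For Pdgfd the ranges were −0.89 to −0.40 in arterial coronary, −0.16 to −0.041 in cardiomyocyte, −0.58 to −0.072 in coronary, −0.50 to 0.28 in epicardial, −0.16 to 0.41 in fibroblast, −1.07 to −0.30 in mural, −0.67 to −0.13 in valve cells. For Pdgfra the ranges were −0.27 to 0.32 in cushion, −0.24 to 1.04 in epicardial, −0.28 to 0.31 in fibroblast, −1.45 to 0.020 in pericyte, −0.61 to −0.065 in valve cells. For Pdgfrb the ranges were −0.31 to 0.24 in cushion, −0.46 to 0.69 in epicardial, −0.30 to −0.14 in fibroblast, −0.095 to 0.068 in mural, −0.52 to −0.080 in pericyte, 0.10 to 1.26 in valve cells. The differences in fold change ranged over −0.53 to 0.018 (Pdgfb, coronary minus mural), −0.80 to 0.081 (Pdgfd, mural minus coronary), −0.98 to 0.34 (Pdgfra) and −0.82 to 0.15 (Pdgfrb, both fibroblast minus epicardial).

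Shares of cells with a UMI depended on depth, eKO replicate 2 being the shallowest. Without thinning the eKO minus control difference was −15.9 percentage points for Pdgfb in coronary, −11.1 for Pdgfra in fibroblast, −13.7 for Pdgfrb in fibroblast and −0.383 for Pdgfrb in pericyte cells, and at 1000 UMIs it was −1.71 and −14.3 for Pdgfrb in fibroblast and pericyte cells. Leiden clusters gave no pericyte cluster or subclass, thinned arterial cells and smooth muscle cells held too few UMIs, and these were not run.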
